A study of Mus musculus with 6 samples.

Results

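The 9 genes described here are Erg, Fli1, Ets1, Sox7, Sox17, Sox18, Tal1, Gata2 and Foxf1, transcription factors of the endothelial lineage. Members were the probe sets whose platform gene symbol is one of these names. Each name matched 1 probe set, which gave 9 of the 24704 genes measured. They were compared in whole lung between 3 control arrays and 3 arrays from mice with an induced, endothelial cell (EC) specific loss of Nfat5, the gene of the osmosensitive transcription factor NFAT5. All lungs came from mice kept in hypoxia for 7 days, and the question of the series was how this loss alters gene expression in the hypoxic lung.

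The control mice were Nfat5fl/fl, with floxed alleles, and received the solvent miglyol. The knockout mice were Nfat5(EC)-/- and received 1 mg tamoxifen per day into the peritoneum on 5 days, so genotype and tamoxifen differed together. Mice of both sexes were treated at 10 to 12 weeks of age and rested for 2 to 3 weeks, and lungs were flushed with cold Ringer solution. Which Cre driver restricts the deletion to endothelial cells is not stated in the labels. The design text speaks of 4 mice per group and of preparations left out for contaminating tissue or a weak expression response to hypoxia, and the replicate numbers used here are 1, 3 and 4 in each group. Nothing in the labels states that each array is a separate animal, so p-values measure the spread between these arrays. In whole lung, fewer cells of a type and less RNA per cell cannot be told apart.

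Endothelial identity is held by a small network of transcription factors that bind shared enhancers and act on one another's genes. ETS factors (Erg, Fli1, Ets1) recognise a GGAA core and keep junction and vessel genes on. SoxF factors (Sox7, Sox17, Sox18) carry an HMG box and act in arterial and lymphatic fate, while Tal1, a basic helix-loop-helix protein, and Gata2, a zinc finger protein, serve blood and vessel precursors alike. Foxf1, a forkhead factor, is needed for lung capillaries and is also made by lung mesenchyme.

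The 9 factors did not move together. Erg and Fli1 fell, Sox18 and Foxf1 rose, and Ets1, Sox7, Sox17, Tal1 and Gata2 did not pass the test. Values are log2 expression of the gene's probe set. Groups were tested with limma, and a gene was called where its p, adjusted across all genes by Benjamini-Hochberg, was under 0.05. Called members were 4 of 9 (44.4%), 2 up and 2 down. Of all genes 25.5% were called, 12.5% higher and 13.0% lower. The groups did not overlap at the same 4 members, as at 41.9% of all genes. The median log2 fold change of the 9 was 0.05 and that of all genes 0.04. No member had a group mean below 2.02, the lower quartile of every array.

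**Figure D1:**
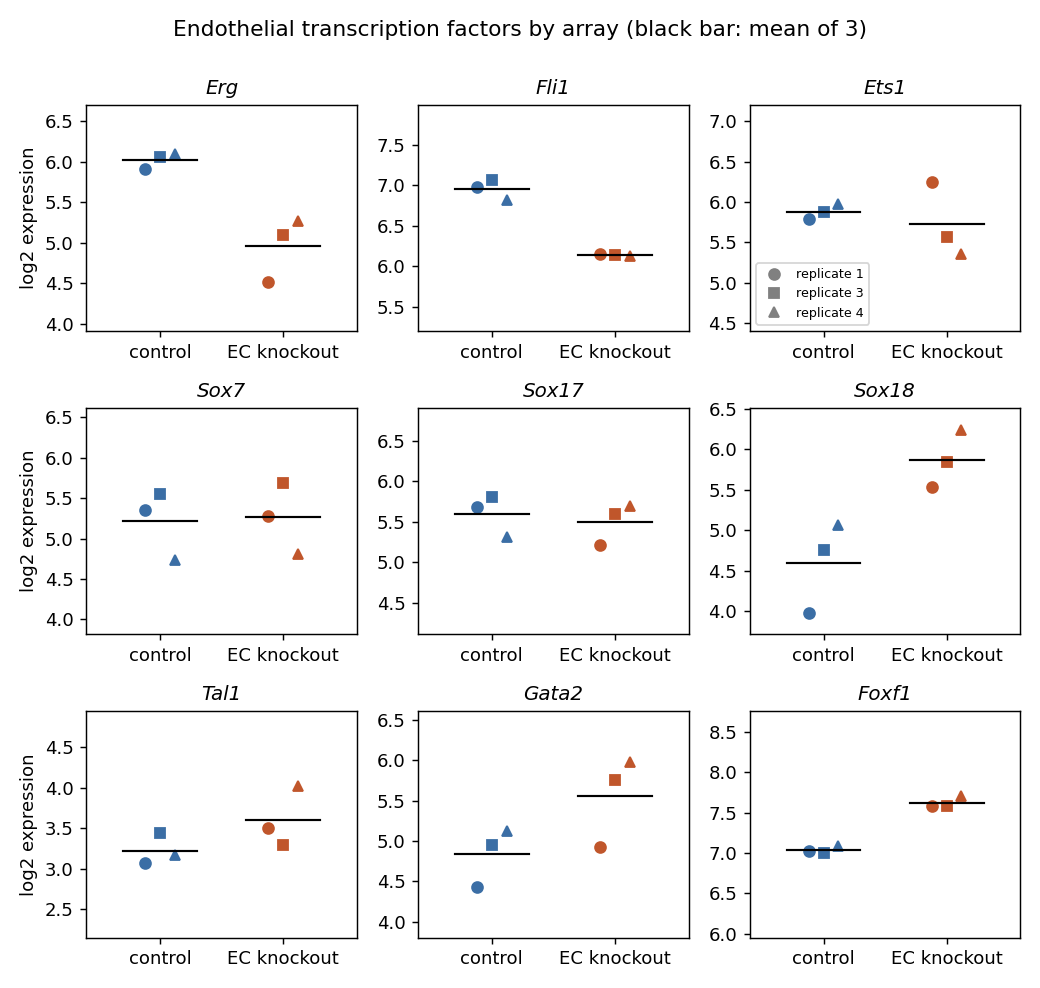
Log2 expression of the 9 factors on each array, with control arrays in blue, EC knockout arrays in orange, marker shapes for the replicate number and a black bar for the mean of 3 arrays; every panel spans the same 2.8 log2 units. Erg and Fli1 are lower on all 3 knockout arrays, Sox18 and Foxf1 are higher on all 3, and the groups overlap for the other 5.

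Nfat5 itself had a log2 fold change of −2.23 ± 0.23 (SE; limma, adjusted p = 0.0015), with controls at 6.30 to 6.65 and knockouts at 3.89 to 4.48. The labels do not state which exons were removed or where the probes lie, so the fall bears on the labels only where probes and deletion coincide. Across the series the knockout arrays also had higher small nucleolar RNA, with array medians of 6.43 to 7.43 against 4.01 to 4.20 in controls, and fold changes fell with gene length. Xist, an RNA of female cells, stood at 8.22 for control replicate 1 and between 2.03 and 2.37 for the remaining 5 arrays. The high level occurred among controls only, so sex may not be balanced between the groups.

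Erg, which maintains junctions and quiescence of the vessel lining, was at 5.91, 6.06 and 6.10 on control replicates 1, 3 and 4. On the knockout replicates in the same order it was at 4.52, 5.10 and 5.27. All 3 knockout arrays lay below all 3 controls, and knockout replicate 1 was the lowest. Group means were 6.02 ± 0.10 and 4.96 ± 0.40 (SD, n = 3 each), so Erg fell 2.08-fold. On the log2 scale this was −1.06 ± 0.23 (SE) at an adjusted p of 0.012 in limma. Without control replicate 3 the adjusted p was 0.055 at −1.04, and with the other 5 arrays left out in turn the call was kept, at −1.21 to −0.84.

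Fli1, the nearest relative of Erg and a factor of megakaryocytes as well as vessels, was at 6.98, 7.07 and 6.81 in controls and at 6.15, 6.14 and 6.13 in knockouts. The knockout arrays were almost equal and all below the lowest control. Means were 6.95 ± 0.13 and 6.14 ± 0.01 (SD, n = 3 each), so Fli1 fell 1.76-fold, or −0.82 ± 0.18 on the log2 scale (SE; limma, adjusted p = 0.012). Without control replicate 1 the adjusted p was 0.052 and without control replicate 3 it was 0.061, at −0.80 and −0.76.

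Ets1, which is shared by endothelial cells and lymphocytes, was at 5.80, 5.88 and 5.97 in controls and at 6.25, 5.57 and 5.36 in knockouts. Knockout replicate 1 lay above every control and the other two below every control, so the groups overlapped. The log2 fold change was −0.16 ± 0.25, with a 95% interval of −0.72 to 0.41 (limma, adjusted p = 0.70). Knockout replicate 1 was the highest knockout for Ets1 and the lowest for Erg. Without it Ets1 stood at −0.42 ± 0.20 (SE; limma, adjusted p = 0.16) and Erg at −0.84 ± 0.20 (adjusted p = 0.018).

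Markers of blood cells that also use ETS factors gave no shared direction. Of 11 T and NK cell markers 2 were higher and 1 lower, and their mean level was 3.26 to 3.56 on control arrays and 3.26 to 3.84 on knockout arrays. Of 7 B cell markers 1 was higher and 1 lower, with mean levels of 3.83 to 4.21 and 3.46 to 4.07. Of 7 megakaryocyte and platelet markers 0 were higher and 1 lower, with mean levels of 3.03 to 3.35 and 2.74 to 3.43. Called were 27.3%, 28.6% and 14.3% of these lists in turn, against 25.5% of all genes. The part of these blood cells in the values of Fli1 and Ets1 was not tested.

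The 3 ETS factors were also set against each other within each array. The Erg minus Ets1 difference was 0.11, 0.19 and 0.12 in controls and −1.73, −0.47 and −0.08 in knockouts. The Fli1 minus Ets1 difference was 1.19, 1.19 and 0.84 in controls and −0.10, 0.57 and 0.77 in knockouts. On every knockout array both differences lay below all controls, and the means differed by −0.90 and −0.66 log2 units. Knockout replicate 1 had the lowest value of both differences, and without it these were −0.42 and −0.40. The Erg minus Fli1 difference overlapped between groups, at −1.08, −1.0 and −0.72 in controls and −1.63, −1.04 and −0.85 in knockouts. Its means differed by −0.24, by −0.40 without knockout replicate 4, by −0.13 without control replicate 4 and by −0.015 without knockout replicate 1. In two-sided exact permutation tests p was 0.10 for each pair with Ets1, the smallest that 3 against 3 arrays allow, and 0.50 for Erg and Fli1. Adjusted over the 6 pairs compared in the ETS and SoxF groups these were 0.20, 0.20 and 0.60.

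Erg has 3 annotated starts in the RefSeq promoter table (build GRCm38.p6), each given as 250 bases before and 50 after the start. They are shown because Erg was the member that fell most, and because ETS factors are known to bind the genes of other members. Capitals mark GGAA or its reverse complement, the ETS core.
Erg, start 1 (chr16:95586544-95586843, minus strand): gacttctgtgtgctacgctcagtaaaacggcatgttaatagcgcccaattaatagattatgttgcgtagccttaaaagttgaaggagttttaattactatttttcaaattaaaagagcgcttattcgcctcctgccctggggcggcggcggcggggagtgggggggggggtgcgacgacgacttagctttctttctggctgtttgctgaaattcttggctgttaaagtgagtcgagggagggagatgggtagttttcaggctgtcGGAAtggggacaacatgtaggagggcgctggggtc
Erg, start 2 (chr16:95530316-95530615, minus strand): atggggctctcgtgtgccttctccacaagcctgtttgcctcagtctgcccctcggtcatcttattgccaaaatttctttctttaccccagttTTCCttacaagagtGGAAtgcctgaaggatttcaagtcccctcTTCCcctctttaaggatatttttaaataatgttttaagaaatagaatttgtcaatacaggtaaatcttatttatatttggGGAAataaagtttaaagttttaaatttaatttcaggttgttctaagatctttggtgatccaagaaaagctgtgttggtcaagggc
Erg, start 3 (chr16:95459299-95459598, minus strand): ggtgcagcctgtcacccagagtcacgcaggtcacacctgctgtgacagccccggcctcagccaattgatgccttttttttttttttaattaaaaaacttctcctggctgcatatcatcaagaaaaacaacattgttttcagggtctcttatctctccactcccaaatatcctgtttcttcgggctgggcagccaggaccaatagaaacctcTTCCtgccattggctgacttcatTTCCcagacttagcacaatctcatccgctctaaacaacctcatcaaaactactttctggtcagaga

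The ETS core was found once at start 1, 4 times at start 2 and 2 times at start 3, on either strand. It was present in all 7 promoters of the 3 members with an entry (Erg, Tal1 and Gata2), and in 96.0% of all 32851 promoters of this length. The longer ETS letters AGGAAG or CGGAAG were in 1 of the 7, start 3 of Erg, and in 46.5% of all. The NFAT core TGGAAA, which contains GGAA, was in 0 of the 7 and in 21.4% of all. The GATA motif, searched as AGATAA and as TGATAA, each also with G as its last letter, was in 2 of the 7, at start 3 of Erg and at one start of Tal1, and in 29.8% of all. The SOX letters AACAAT were in 1, start 3 of Erg, and in 10.7% of all, and the forkhead letters GTAAACA in 0 of the 7. All were searched on both strands, and a match describes letters in this window only. GC content was 50.3%, 37.3% and 46.0% at the 3 Erg starts, against a median of 52.7% over all promoters.

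Of the SoxF factors only Sox18 passed the test. Sox18, which acts in lymphatic and vascular growth, was at 3.98, 4.75 and 5.06 in controls and at 5.53, 5.84 and 6.24 in knockouts. Every knockout array lay above every control, and replicate 1 was the lowest in both groups. Means were 4.60 ± 0.56 and 5.87 ± 0.36 (SD, n = 3 each), a 2.42-fold rise, with a log2 fold change of 1.27 ± 0.31 (SE; limma, adjusted p = 0.017). Without control replicate 1, the array with high Xist, it was 0.96 (adjusted p = 0.061), and without control replicate 3 it was 1.35 (0.054).

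Sox17, a factor of arterial endothelium whose gene carries risk for pulmonary arterial hypertension, was at 5.68, 5.80 and 5.31 in controls and at 5.22, 5.59 and 5.70 in knockouts. The groups overlapped almost fully. Its log2 fold change was −0.09 ± 0.22, with a 95% interval of −0.60 to 0.41 (limma, adjusted p = 0.80).

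Sox7, the third SoxF gene, was at 5.35, 5.55 and 4.74 in controls and at 5.28, 5.69 and 4.81 in knockouts. Replicate 4 was the lowest and replicate 3 the highest in both groups. Its log2 fold change was 0.05 ± 0.29, with a 95% interval of −0.61 to 0.71 (limma, adjusted p = 0.93).

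Within arrays, Sox17 minus Sox18 was 1.70, 1.05 and 0.25 in controls and −0.32, −0.25 and −0.54 in knockouts. The groups did not overlap, and the mean difference between them was −1.37 log2 units (two-sided exact permutation p = 0.10, adjusted 0.20). Sox7 minus Sox18 shifted by −1.22, with overlapping groups (p = 0.30, adjusted 0.45, exact), and Sox7 minus Sox17 by 0.14 (p = 0.70, adjusted 0.70, exact). With 3 against 3 arrays the test cannot go lower than 0.10. With 1 array left out, Sox17 minus Sox18 shifted by −1.74 to −1.02 and Sox7 minus Sox18 by −1.69 to −0.82, the last without knockout replicate 4. Sox7 minus Sox17 ranged from −0.028 without knockout replicate 3 to 0.46 without knockout replicate 4, and it was −0.0083 without knockout replicate 1 and 0.05 without control replicate 4.

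Tal1, which forms a complex with Gata2, LMO2 and LDB1, was at 3.07, 3.44 and 3.16 in controls and at 3.50, 3.29 and 4.03 in knockouts. Knockout replicate 3 fell within the control range. The log2 fold change was 0.38 ± 0.24, with a 95% interval of −0.16 to 0.92 (limma, adjusted p = 0.29).

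Gata2, a zinc finger factor of endothelium, blood stem cells and mast cells, was at 4.43, 4.95 and 5.12 in controls and at 4.92, 5.75 and 5.98 in knockouts. Each group was lowest on replicate 1, and knockout replicate 1 lay within the control range. The log2 fold change was 0.72 ± 0.31, with a 95% interval of 0.02 to 1.41 before adjustment (limma, adjusted p = 0.12). Without knockout replicate 1 it was 1.03 and passed (adjusted p = 0.021).

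Mast cells depend on Gata2, and their markers are given beside it. Of 10 mast cell and basophil markers 1 was higher (Tpsab1) and 1 lower (Cpa3), both of them mast cell protease genes. That was 20% called, against 25.5% of all genes. The group means of 5 (Fcer1a, Ms4a2, Mcpt4, Cma1 and Mcpt8) lay below 2.02 in both groups, and the mean level over the list was 2.83 to 3.04 on controls and 2.81 to 2.85 on knockouts. Of 7 erythroid markers 0 passed, with mean levels of 2.94 to 3.61 and 2.92 to 3.80. Their part in the values of Tal1 and Gata2 was not tested.

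Foxf1 was at 7.03, 7.00 and 7.08 in controls and at 7.58, 7.58 and 7.70 in knockouts. Both groups were tight, and every knockout array lay above every control. Means were 7.04 ± 0.04 and 7.62 ± 0.07 (SD, n = 3 each), a 1.5-fold rise, with a log2 fold change of 0.58 ± 0.18 (SE; limma, adjusted p = 0.039). The size varied little when 1 array was left out (0.54 to 0.60), but the call was lost in each of these 6 fits, at an adjusted p of 0.051 without knockout replicate 1, 0.062 without knockout replicate 3, 0.075 without knockout replicate 4, 0.089 without control replicate 4, 0.11 without control replicate 1 and 0.13 without control replicate 3. Foxf2, its closest relative, did not pass (0.24 ± 0.23).

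Fendrr, the long noncoding RNA gene next to Foxf1 and transcribed away from it, moved the opposite way. It was at 6.14, 6.0 and 5.76 in controls and at 5.30, 4.96 and 5.31 in knockouts. The groups did not overlap, and the change of −0.77 ± 0.20 log2 units (SE) passed in limma (adjusted p = 0.023). The call was lost without control replicate 1, control replicate 3 or knockout replicate 3, with an adjusted p of up to 0.097. On the other side of Foxf1, Mthfsd rose by 0.76 ± 0.23 (adjusted p = 0.039), a call kept in only 1 of the 6 fits that left out an array. The annotated spans of Foxf1 and these neighbours do not overlap.

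The Fendrr promoter is shown because Fendrr and Foxf1 lie side by side and changed in opposite directions. Capitals mark the forkhead letters GTAAACA, searched on both strands, which 3.65% of all promoters of this length hold. Not marked are 5 matches of the ETS core and 1 of the longer ETS letters, which 96.0% and 46.5% of all promoters hold. A match describes letters in this window only, and binding was not tested.
Fendrr (chr8:121083061-121083360, minus strand): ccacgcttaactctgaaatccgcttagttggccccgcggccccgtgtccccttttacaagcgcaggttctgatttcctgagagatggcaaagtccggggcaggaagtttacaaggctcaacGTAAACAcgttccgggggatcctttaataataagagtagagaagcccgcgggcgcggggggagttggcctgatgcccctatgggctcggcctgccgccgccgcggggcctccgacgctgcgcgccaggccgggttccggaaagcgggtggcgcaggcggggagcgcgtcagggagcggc

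Mesenchymal cells of the lung express Foxf1 as well. Of 12 pericyte and smooth muscle markers 3 were higher and 1 lower (33.3% called, against 25.5% of all genes). Cspg4 (1.69), Notch3 (1.69) and Cox4i2 (1.09) were higher and Abcc9 (−0.78) lower. The mean level of the list was 4.85 to 5.18 on control arrays and 5.28 to 5.62 on knockout arrays, without overlap. Its median log2 fold change was 0.20. With 1 array left out the median ranged from 0.048 without control replicate 1 to 0.35 without knockout replicate 1. Of 10 fibroblast markers 2 were higher and 1 lower (30% called), with mean levels of 6.55 to 6.60 and 6.36 to 6.55. Their part in the rise of Foxf1 was not tested.

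**Figure D2:**
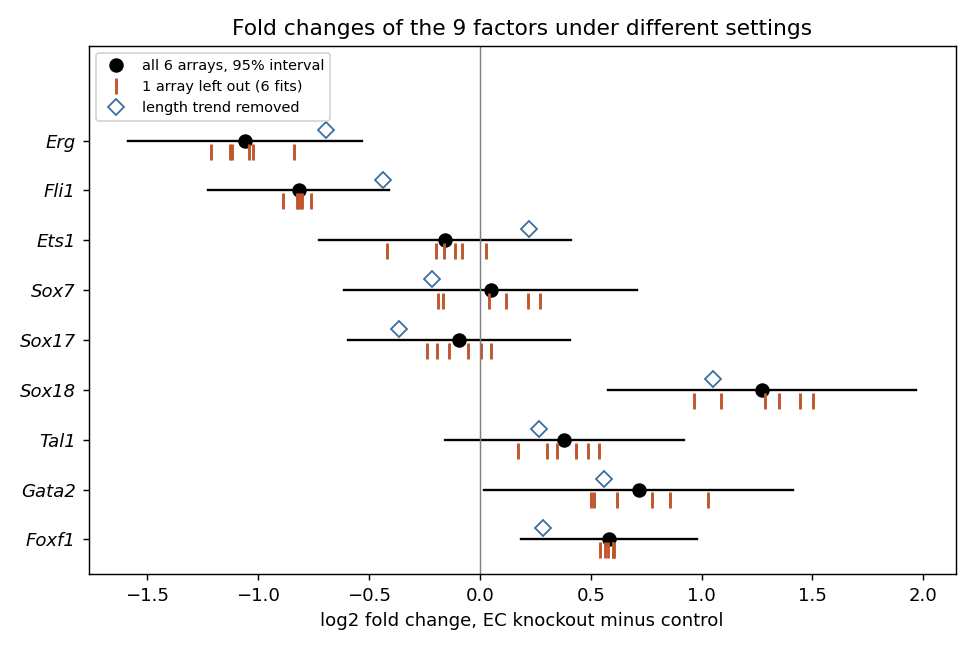
Log2 fold change (EC knockout minus control) of the 9 factors, with the black circle and line for all 6 arrays and the 95% interval, orange ticks for the 6 fits that leave out 1 array and open blue diamonds for values with the trend in gene length removed. Erg, Fli1, Sox18 and Foxf1 keep their sign in all of these, at reduced size in the length fit, while Ets1, Sox7 and Sox17 lie on both sides of 0.

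The called members divided by the length of their genes, with the lower ones long and the higher ones short. The ETS genes span 121.2 kb (Fli1), 121.6 kb (Ets1) and 227.4 kb (Erg), and the other 6 span 1.80 kb (Sox18) to 15.3 kb (Tal1), by the RefSeq gene table of GRCm38.p6. Protein-coding genes were put into 5 equal bins by span. Erg, Fli1 and Ets1 lay in the longest bin, where 31.5% of genes were lower and 5.41% higher and the median log2 fold change was −0.33. Sox18 and Foxf1 lay in the shortest, where 2.26% were lower, 14.6% higher and the median was 0.17. Within its own bin, 20.7% of genes had a lower fold change than Erg and 30.5% lower than Fli1, while 95.5% lay below Sox18 and 77.4% below Foxf1.

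With the average length trend of each array removed, Sox18 still passed, at 1.05 (limma, adjusted p = 0.031). Erg stood at −0.69 (0.061), Fli1 at −0.44 (0.10) and Foxf1 at 0.29 (0.26), and none of these 3 passed. The called members were then 1 higher and 0 lower, while 5137 of 19686 protein-coding genes were called, 2548 higher and 2589 lower. Ets1 and Sox7 changed sign, to 0.22 and −0.21, and passed in neither fit.

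**Figure D3:**
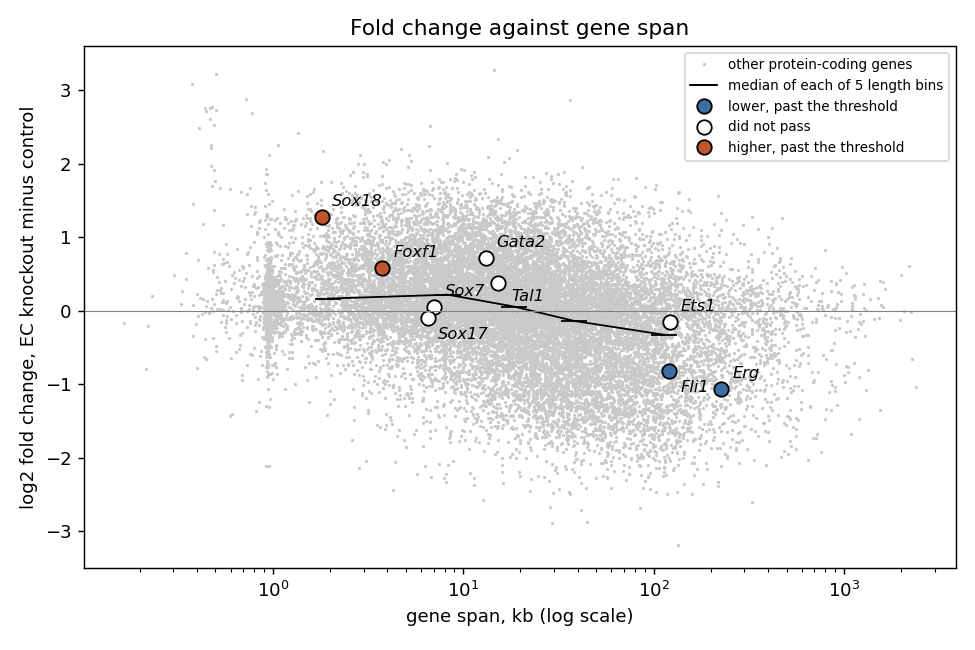
Log2 fold change (EC knockout minus control) against gene span in kb on a log scale, with grey points for 19686 protein-coding genes, a black line through the medians of 5 length bins and large circles for the 9 factors, filled where they passed the threshold. The 3 ETS genes sit at the long end and Sox18 and Foxf1 at the short end; Sox18 lies farthest above the medians.

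The families of the members were described from lists that leave the members themselves out. Of 22 other ETS genes 4 were higher and 4 lower (36.4% called, against 25.5% of all genes, median −0.05). Erf, an ETS repressor, rose by 1.78 ± 0.32 and Spdef, a factor of goblet cells, by 1.3 ± 0.28. Gabpa, which drives mitochondrial and housekeeping genes, stood at −1.27 ± 0.27 and the epithelial Ehf at −1.09 ± 0.24 (SE; limma, adjusted p of the 4 between 0.0055 and 0.011). Spi1 and Etv2 also rose, and Elf1 and Elk4 fell. Ets2, the gene next to Erg, did not pass (−0.35 ± 0.18), as Ets1, the gene next to Fli1, did not. Leaving out control replicate 1 gave 2 higher and 1 lower, control replicate 3 gave 1 and 2, and control replicate 4 gave 3 and 2. Erf and Gabpa kept their calls in all 6 such fits, and Spdef lost its call without control replicate 3 and Ehf without control replicate 1 (adjusted p = 0.054 and 0.053).

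Sox18 was not alone among SOX genes. Of 17 others 8 were higher and 0 lower (47.1% called, against 25.5% of all genes, median 0.63), and 15 of these 17 span at most 50 kb. Many were dim. The control means of Sox1, Sox9, Sox8, Sox3, Sox11 and Sox21 were 1.94 to 2.76, below the array median of 2.98, and that of Sox18 was 4.60. In the fit of genes above the median mean level 7 of the 17 were left, 4 of them higher, and the intensity trend fit called 5 higher. Sox21 rose by 1.38 ± 0.27 and Sox14 by 1.38 ± 0.28, both best known from the nervous system, Sox13 by 0.83 ± 0.20 and Sox9, a cartilage and airway progenitor factor, by 1.17 ± 0.35 (SE; limma, adjusted p between 0.0071 and 0.038). Sox1, Sox3, Sox8 and Sox11 were the other 4. Leaving out 1 array left 2 to 5 higher, the fewest without control replicate 1 or 3, and Sox21 and Sox14 were called in each such fit. Sox13 lost its call without control replicate 1 or 3. Sox9 kept its call in only 1 of the 6 fits, with a limma adjusted p of up to 0.14. With the length trend removed 3 of 17 were higher, and Sox4 and Sox2, both with known roles in the lung, did not pass in the fit with all arrays (−0.15 ± 0.36 and 0.43 ± 0.35).

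Forkhead genes moved both ways, most of those called upward. Of 42 genes other than Foxf1, 18 were higher and 3 lower (50% called, against 25.5% of all genes, median 0.59). Foxj1, the regulator of motile cilia, rose by 1.59 ± 0.18, Foxa3 by 1.49 ± 0.20 and Foxo6 by 1.64 ± 0.24, while Foxp1, a repressor of lung epithelium and vessels, stood at −1.33 ± 0.18 (SE; limma, adjusted p between 0.0018 and 0.0029). The other 2 lower genes were Foxp2 and Foxn2. The spans of Foxp1 and Foxp2 are 597 and 541 kb. Counts were 6 higher and 2 lower without control replicate 1 or 3, 10 and 3 without control replicate 4, and 11 and 2 with the length trend removed. These 4 named genes kept their calls in all 6 fits that left out an array.

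Of the 5 GATA genes other than Gata2, 3 were higher (60% called, against 25.5% of all genes). Gata3, a lymphocyte and mammary factor, rose by 0.91 ± 0.27, Gata4 by 0.86 ± 0.25 and Gata5 by 0.84 ± 0.24 (SE; limma, adjusted p between 0.032 and 0.039). Gata6, the GATA factor of lung epithelium and smooth muscle, did not pass (0.22 ± 0.21), nor did the erythroid Gata1 (0.22 ± 0.21). The 3 calls fell to 0 without control replicate 3, control replicate 4 or knockout replicate 3, to 1 without control replicate 1 or knockout replicate 1 and to 2 without knockout replicate 4.

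Among 13 partners of Tal1, 4 rose and 3 fell (53.85% called, against 25.5% of all genes, median 0.38). Among the E proteins that dimerise with Tal1, Tcf3 rose by 1.42 ± 0.28 while Tcf12 stood at −1.51 ± 0.27 and Tcf4 at −1.08 ± 0.20. Lyl1, the paralogue of Tal1, rose by 1.10 ± 0.24 (SE; limma, adjusted p of the 4 between 0.0052 and 0.012). Ldb1 and Cbfa2t3 also rose and Ldb2 fell. Lmo2, the bridge of the complex, was at 4.78, 4.30 and 4.37 in controls and at 5.99, 4.85 and 5.04 in knockouts. Its groups did not overlap, yet it did not pass (0.82 ± 0.31, adjusted p = 0.084). The 3 E proteins kept their calls in all 6 fits that left out an array, and Lyl1 lost its call without control replicate 3 (adjusted p = 0.060). The counts were 2 and 2 without control replicate 1 and 1 and 2 without control replicate 3.

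Of 27 other endothelial transcription factors 6 were higher and 5 lower (40.7% called, against 25.5% of all genes, median −0.06). Hlx rose by 2.04 ± 0.25 and the shear-responsive Klf2 by 1.5 ± 0.26, while Mef2c stood at −1.33 ± 0.23 and Meox2 at −1.83 ± 0.31 (SE; limma, adjusted p between 0.0019 and 0.0047). These 4 were called in every fit that left out 1 array. Epas1, the hypoxia-inducible factor of endothelium (−0.99 ± 0.21), and Nr2f2, the venous identity factor (−0.94 ± 0.20), also fell; they were chosen after their values were seen, and each lost its call without 1 control array, Epas1 without replicate 3 (adjusted p = 0.056) and Nr2f2 without replicate 1 (0.055). Counts were 3 and 3 without control replicate 1, 2 and 3 without control replicate 3 and 4 and 4 without control replicate 4.

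Endothelial genes whose control elements are known to be bound by ETS, SOX, GATA or forkhead factors also divided. Of 34 such genes 11 were higher and 6 lower (median 0.34), against 12.5% and 13.0% over all genes. Rasip1, needed for vessel lumens, rose by 1.81 ± 0.22, Vwf by 1.61 ± 0.24 and the arterial connexin gene Gja4 by 1.57 ± 0.26. The junction gene Cdh5, an ETS target, stood at −1.52 ± 0.26 (SE; limma, adjusted p of the 4 between 0.0019 and 0.0045). These 4 kept their calls in each fit without 1 array. Kdr, the main VEGF receptor, did not pass (−0.91 ± 0.37, adjusted p = 0.11). The counts were 7 and 3 without control replicate 1, and 6 and 3 without control replicate 3.

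Genes of endothelial adhesion and inflammation, some of which Erg is known to hold down, were higher at 1 of 7 and lower at 0 (14.3% called). The 1 was Icam1, at 0.65 ± 0.20 (SE; limma, adjusted p = 0.040), which was called in 1 of the 6 fits that left out an array. Over the 16 pan-endothelial markers, 4 were higher and 6 lower (62.5% called, against 25.5% of all genes). Ptprb (−2.14), Tek (−2.01), Emcn (−1.62), Pecam1 (−1.59), Cdh5 (−1.52) and Cd34 (−0.88) were lower. Vwf (1.61), Egfl7 (1.06), Eng (1.03) and Cldn5 (0.91) were higher. Of these, Ptprb, Tek, Pecam1, Cdh5, Vwf and Egfl7 kept their calls in all 6 fits that left out an array. The mean level of the 16 markers was 7.19 to 7.33 on control arrays and 6.88 to 7.16 on knockout arrays. That level was lower on every knockout array, while the median log2 fold change of the list was −0.06. Mean levels of the marker lists for macrophages, alveolar and airway cells also lay lower on every knockout array. Alveolar macrophage markers were at 5.33 to 5.78 in controls and 4.53 to 4.89 in knockouts. Alveolar type 1 markers were at 7.91 to 8.20 and 7.58 to 7.76, and type 2 markers at 9.29 to 9.46 and 8.61 to 9.15. Airway markers were at 6.74 to 7.00 and 6.43 to 6.61. These lists do not separate the named cells from endothelium. Fabp4 (−2.43) and Car4 (0.635) of the macrophage list and Cav1 (−1.15) of the type 1 list are also expressed in endothelial cells. Single markers went both ways in each list. Of 8 macrophage markers 1 was higher and 2 lower, and of 7 type 1 markers 1 and 3. Of 8 type 2 markers 1 was higher and 3 lower, and of 9 airway markers 2 and 3. The part of any of these cell types in the falls of Erg and Fli1 was not tested. Thymus markers, relevant since contaminated preparations had been removed, had mean levels of 2.19 to 2.71 and 2.19 to 2.43.

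The pattern of Erg over the 6 arrays was most like those of Gphn (Pearson r = 0.998), Il33 (0.996) and Cd55 (0.995), out of 11277 other protein-coding genes above the median level. That of Sox18 was most like Dlgap4 (0.999), D030056L22Rik (0.998) and Apbb1 (0.998). Such likeness was common: 324 genes had an r of at least 0.95 with Erg and 299 with Sox18. With 3 arrays in each group, the arrays share the group difference, and these values are a description only.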

How the data were processed

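Whole-lung RNA was hybridised as biotin-labelled cRNA to Affymetrix arrays. The authors deposited 1 log2 value per probe set and array, computed with RMA per the submitters' processing notes, which name no version or probe set definition. All 6 arrays share 1 set of quantiles (median 2.98). Of 25428 probe sets, 24705 had 1 gene symbol; the brighter of a duplicate was kept, leaving 24704 genes with no filter on dim ones. The arrays carry no counts or detection calls, and their number limits the precision.

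Knockout and control were compared per gene with limma 3.58.1 (lmFit, eBayes) in R 4.3.3, with p-values adjusted across the 24704 genes and called under 0.05. The procedure was tested on simulated data. Gene spans and promoters came from RefSeq tables of GRCm38.p6. Differences between members within arrays were tested with scipy 1.17.1 by exact permutation.

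Members, gene lists and the tests were chosen with earlier results of these data known. Named genes were the members, Nfat5 and up to 4 of smallest p per list. The 3 most alike by Pearson r were also named for the largest rise and fall. Neighbours, further called genes of some lists, cell type markers and genes that did not pass were named after seeing values. Alternatives varied filters, scaling, the variance model, covariates, the threshold and the arrays used.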

Additional observations from a re-analysis of the deposited data

How the results depend on the processing

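The 9 members were refitted under 22 alternatives. Filters, probe set averaging, unnamed probe sets, renewed scaling, intensity trend, robust eBayes, array weights, protein-coding genes alone and a threshold of 0.10 changed no member's call. Some of these could hardly do so. Each member has 1 probe set, the arrays already share 1 set of quantiles, and a looser threshold cannot remove a call. Arrays of the same number deviated from their group means with correlations of 0.062, −0.013 and 0.0038 (replicates 1, 3 and 4), so the numbers were not taken as pairs. With the replicate block 6082 genes were called and the members were still 2 higher and 2 lower, with Foxf1 lost (adjusted p = 0.067) and Gata2 gained (0.041). With the length trend removed they were 1 and 0 (5137 of 19686 genes called in all), and Ets1 (0.22) and Sox7 (−0.21) changed sign. With Xist as a covariate they were 0 and 1 (2827 genes called in all), and at a threshold of 0.01 they were 0 and 0 (2560 genes). Adjusting for each array's snoRNA median, whose control and knockout ranges do not meet, left 0 genes called, 0 members higher and 0 lower, with 3576 genes at an unadjusted p under 0.05 by limma; Erg (0.66), Sox7 (−0.094) and Sox17 (1.07) changed sign, none of them past the threshold. The causes were not tested.

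Without 1 array the members called were 0 to 2 higher and 0 to 2 lower, and the genes called in all 2882 to 6155, against 6292 with every array. The fewest came without control replicate 3, with 3141 without control replicate 1 and 4457 without control replicate 4. Fold changes crossed 0 only for members that never passed: Ets1 (−0.42 to 0.027), Sox7 (−0.19 to 0.27) and Sox17 (−0.24 to 0.049). Of the 4 called members, Erg kept its call in 18 of 22 alternatives, Sox18 in 17, Fli1 in 16 and Foxf1 in 11. These counts include the alternatives that could hardly change a call. They also hold near repeats: Erg was at −1.13 with Xist as a covariate and at −1.12 without control replicate 1, the array with high Xist. The list counts under each alternative, and the differences between members without 1 array, were chosen after seeing the data. Without detection calls, no limit of signal over background could be set.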
